A study of Bos taurus with 90 samples.

Results

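The genes described here are IRS2 (ENSBTAG00000012019) and SIK1 (ENSBTAG00000011437), 2 of the 24616 bovine genes in the count table. IRS2, insulin receptor substrate 2, is an adaptor that the activated insulin receptor phosphorylates and through which it recruits phosphoinositide 3-kinase. SIK1, salt-inducible kinase 1, is a kinase that phosphorylates the CREB coactivator CRTC2 and class IIa histone deacetylases and so holds back the gluconeogenic programme of the liver. Both transcripts are known targets of the fasting signal in liver: glucagon raises cAMP, which activates CREB at the SIK1 and IRS2 genes, and insulin lowers IRS2 transcription through FOXO and SREBP-1c.

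Both genes were chosen from measured values, namely the difference between low and high residual feed intake (RFI) in Charolais (CH) steers on the first high-concentrate diet. That difference is therefore given as values with no test. RFI is the feed an animal eats above or below what its size and growth predict, so that low RFI steers are the efficient ones. The analysis covered 90 liver biopsies from CH and Holstein-Friesian (HF) steers, all fed ad libitum, taken at the end of 3 consecutive dietary phases. These were high concentrate 1 (H1, rolled barley with soya bean meal, molasses and restricted grass silage), zero-grazed grass (ZG) and high concentrate 2 (H2, the H1 diet given again).

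On H1 there were 9 low and 11 high RFI CH steers, and 7 low and 9 high RFI HF steers. Grass-fed steers numbered 3 low and 3 high RFI for CH and 10 low and 8 high RFI for HF. On H2 there were 9 low and 8 high RFI CH steers, and 5 low and 8 high RFI HF steers. Every steer passed through the phases in the same order, from growing to finishing, with grass silage and then grazed grass fed in between, so diet, age and season cannot be told apart. The sequenced steers were those with the most extreme RFI of their breed and phase. Of the steers, 14 had libraries in more than 1 phase within a breed, and 6 of these changed RFI label between phases. Steer number 1797 is labelled CH on H1 and HF on H2 and was not treated as one animal.

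The libraries held between 9097695 and 63621304 counts (median 18858293). Levels are given as CPM, counts scaled to the size of the library after TMM normalization, and a gene near 1 CPM rests on few reads. None of the 42 marker genes listed for liver and other cell types could be matched to an identifier, so the tissue was checked with genes chosen afterwards: the fibrinogen chains FGG and FGA ranked 6 and 7 of all genes by mean CPM, and APOC3, a liver apolipoprotein, ranked 78. In whole tissue, fewer cells of a type and less RNA per cell cannot be told apart. The libraries also differed among themselves within groups. The first principal component of the deviations of 13945 genes from their group means held 28.9% of that variance, against 7.29% for the second. The score of a library on this component lay between -2.58 and 50.2 over the H1 libraries, but reached down to -134 on ZG and -117 on H2. The component was found within groups but its scores were not centred by group, so they also hold differences between diets, and a fit with the score as a covariate removes the part of a diet difference that runs along it.

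IRS2 was a low and variable transcript. Over the 90 libraries it ranged from 0 to 11.97 CPM with a median of 2.47 CPM, which is 0 to 409 reads with a median of 42.5 reads. In 8 libraries it had 3 reads or fewer, 1 of them CH on H2, 3 HF on H2 and 4 HF on ZG. The 2 libraries with 0 reads, steer 5609 on H2 and steer 5635 on ZG, allow levels of up to 0.220 and 0.224 CPM (3 counts; counting error only). Its biological coefficient of variation within groups was 0.767, higher than that of 98.4% of the 500 genes nearest to it in mean level.

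SIK1 was detected in every library. Its level ranged from 1.23 to 22.1 CPM with a median of 4.43 CPM, from 14 to 553 reads. The coefficient of variation was 0.438, higher than that of 89.4% of its 500 neighbours in level. In the plot of both genes by group, the spread of IRS2 on ZG and H2 and the high SIK1 values of low RFI CH steers on H1 stand out.

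**Figure D1:**
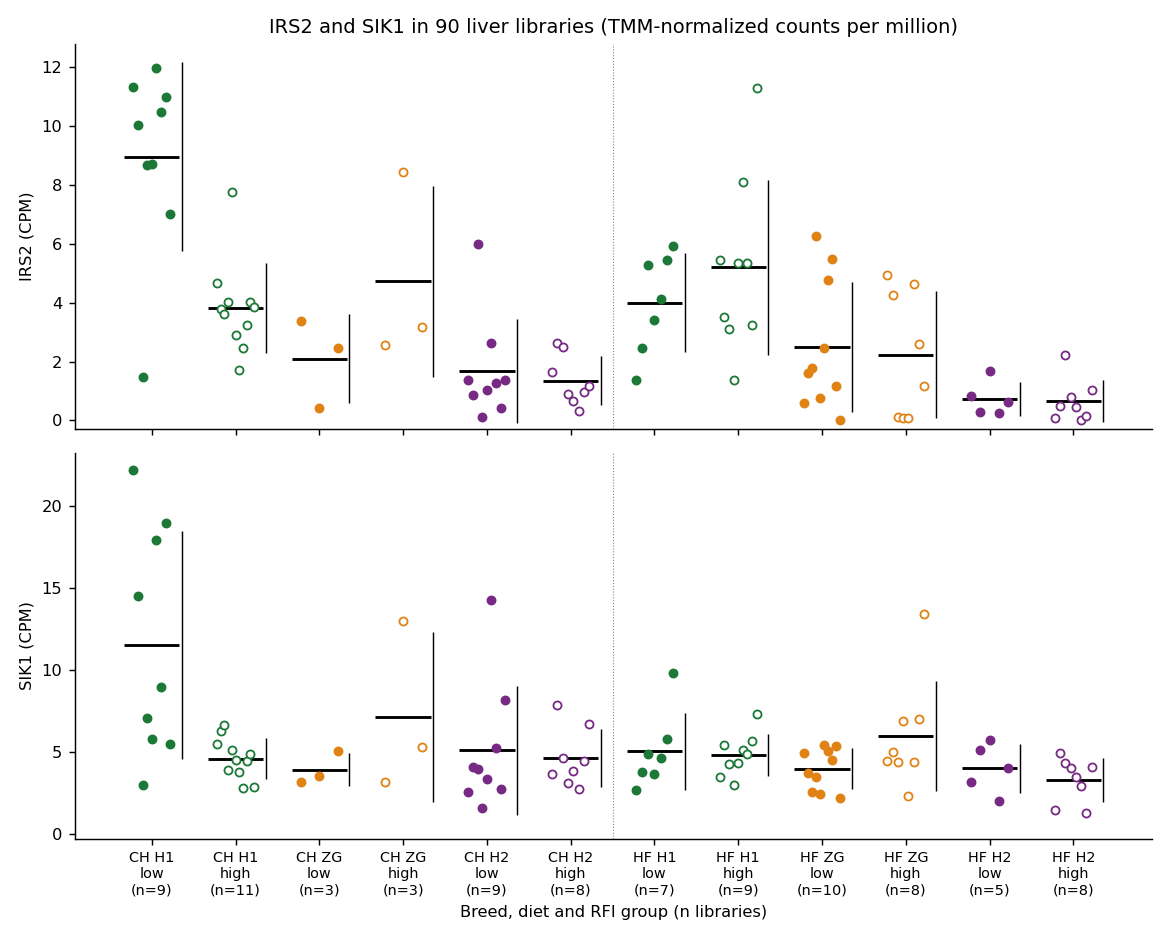
Level of IRS2 (top) and SIK1 (bottom) in CPM on the y axis in each of 90 libraries, by breed, diet and RFI group on the x axis (filled points low RFI, open points high RFI, colour by diet, horizontal bar the mean, vertical bar to its right the mean ± SD). IRS2 falls from means of 6.13 and 4.67 CPM on H1 to 1.52 and 0.691 CPM on H2 in CH and HF. SIK1 means lie between 3.55 and 7.69 CPM in the 6 combinations of breed and diet. The highest is that of CH on H1, from which the genes were chosen, with 11.5 CPM in low and 4.58 CPM in high RFI steers.

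In CH steers on H1, the contrast from which the genes were chosen, IRS2 ranged from 1.47 to 11.97 CPM in the 9 low RFI steers (median 10.0) and from 1.72 to 7.74 CPM in the 11 high RFI steers (median 3.78). The groups overlapped. Although 7 of 9 low RFI values exceeded the highest of the high RFI group, steer 1846 (6.99 CPM) was below high RFI steer 449, and low RFI steer 950, at 1.47 CPM and 18 reads, was below all high RFI steers. SIK1 ranged from 2.94 to 22.1 CPM in low RFI steers (median 8.92) and from 2.76 to 6.62 CPM in high RFI steers (median 4.48), and here 6 of 9 low RFI values exceeded the other group. Steer 950 was again the lowest of its group, at 2.94 CPM. The fitted log2 difference, low minus high RFI, was 1.23 (SE 0.26) for IRS2 and 1.34 (SE 0.30) for SIK1. In this comparison 2 of 12920 genes, 0.0155%, were called by edgeR at an adjusted p under 0.1, neither of them IRS2 or SIK1, and both members are among the 160 genes called by the DESeq2 Wald test. Since this contrast served to choose the genes, nothing about them is read from either count. Scores on the first principal component were 34.2 ± 11.1 (SD, n = 9) in low and 28.9 ± 12.1 (SD, n = 11) in high RFI steers, and with the score as a covariate, an alternative added after seeing the data, the log2 differences were 1.10 for IRS2 and 1.18 for SIK1.

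The other 5 combinations of breed and diet, which the choice of genes did not use, asked whether RFI groups differed elsewhere. Neither gene was called in any of them by edgeR, nor were any other genes: 0 of 12417 to 13025 genes tested passed (0%), against 261 to 1755 genes at an unadjusted p under 0.05. The DESeq2 Wald test called 158 genes for CH on ZG, 4 for CH on H2, 26, 2 and 5 for HF on H1, ZG and H2, neither IRS2 nor SIK1 among them. The intervals are wide, so these results do not show that the groups were alike.

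In CH steers on ZG, IRS2 was at 0.425, 2.47 and 3.37 CPM in the 3 low RFI steers and at 2.56, 3.17 and 8.44 CPM in the 3 high RFI steers. SIK1 was at 3.15, 3.50 and 5.05 CPM in low RFI and at 3.14, 5.26 and 13.0 CPM in high RFI steers. For both genes the groups overlapped and the highest value was that of steer 437, a high RFI animal. The log2 difference was -1.15 for IRS2 (95% interval -2.78 to 0.47, edgeR adjusted p 0.412) and -0.86 for SIK1 (-2.01 to 0.29, edgeR adjusted p 0.3995). Without steer 437 the SIK1 difference was -0.11, and with the component score as a covariate the IRS2 difference was 0.48, the score being -26.6 on average in the 3 low and 24.1 in the 3 high RFI steers. The exact two-sided permutation test of 3 against 3 steers, whose smallest possible p is 0.1, gave 0.4 for IRS2 and 0.5 for SIK1.

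On H2, IRS2 ranged from 0.111 to 5.98 CPM in low RFI CH steers (median 1.27, n = 9) and from 0.331 to 2.63 CPM in high RFI CH steers (median 1.08, n = 8). SIK1 had medians of 3.95 CPM (1.55 to 14.2) and 4.10 CPM (2.72 to 7.83) in the same groups. Low RFI steers held both the highest and the lowest value of each gene. The log2 differences were 0.25 for IRS2 (-0.80 to 1.29) and 0.14 for SIK1 (-0.60 to 0.87), both with an edgeR adjusted p of 0.998.

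In HF steers on H1, IRS2 ranged from 1.36 to 5.92 CPM in 7 low RFI steers (median 4.11) and from 1.37 to 11.3 CPM in 9 high RFI steers (median 5.35). The difference was thus in the opposite direction to that of CH on the same diet, at -0.37 (-1.14 to 0.40, edgeR adjusted p 0.857), with 2 high RFI steers above all low RFI steers. This difference between the breeds was not tested, since the CH contrast had served to choose the genes. SIK1 medians were 4.62 CPM (2.69 to 9.82) and 4.83 CPM (2.94 to 7.29), and its log2 difference was 0.08 (-0.41 to 0.56, edgeR adjusted p 0.971).

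Among the 12 groups, the spread of IRS2 was widest in HF steers on ZG, with an SD of log2 CPM of 1.80 in low and 2.24 in high RFI steers. It ranged from 0 to 6.26 CPM in 10 low RFI steers (median 1.70) and from 0.068 to 4.94 CPM in 8 high RFI steers (median 1.88), where 3 steers had 1 or 2 reads. The groups overlapped almost entirely, with a log2 difference of 0.16 (-1.37 to 1.69, edgeR adjusted p 1.00). SIK1 was at 2.16 to 5.40 CPM in low RFI (median 4.09) and at 2.31 to 13.4 CPM in high RFI steers (median 4.72), with 3 high RFI steers above all low RFI steers. Its log2 difference was -0.62 (-1.19 to -0.05), which had an unadjusted edgeR p of 0.0358 and an adjusted p of 1.00.

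On H2, IRS2 in the 5 low RFI HF steers was at 0.262, 0.298, 0.624, 0.817 and 1.69 CPM, and it ranged from 0 to 2.23 CPM in the 8 high RFI steers (median 0.487). SIK1 was at 1.97, 3.12, 3.99, 5.07 and 5.72 CPM in the low RFI steers and at 1.23 to 4.90 CPM in the high RFI steers (median 3.73). For both genes the ranges of the groups overlapped. The log2 differences were 0.15 for IRS2 (-1.27 to 1.57) and 0.27 for SIK1 (-0.39 to 0.93), both with an edgeR adjusted p of 1.00. Leaving out low RFI steer 2071, the highest of its group for both genes, turned the IRS2 difference to -0.40.

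Averaged over these 5 combinations, low minus high RFI was -0.20 on the log2 scale for both genes, with intervals of -0.79 to 0.38 for IRS2 and -0.54 to 0.14 for SIK1 (edgeR adjusted p 0.831 and 0.750). Of 13945 genes, 0 (0%) were called in this test, with 913 at an unadjusted p under 0.05 and 1 called by the DESeq2 Wald test. Exact permutation tests in the 5 combinations gave two-sided p-values from 0.4 to 0.976 for IRS2 and from 0.102 to 0.996 for SIK1, none under 0.512 after adjustment over the 5. The RFI difference of HF minus that of CH was 1.33 for IRS2 (-0.67 to 3.34) and 0.28 for SIK1 (-0.94 to 1.495) on ZG, where 0 genes (0%) were called with 2199 at an unadjusted p under 0.05 and 0 called by DESeq2. On H2 it was -0.08 for IRS2 (-1.94 to 1.78) and 0.14 for SIK1 (-0.84 to 1.128), with 1 gene called (0.00717%), which was neither member.

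**Figure D2:**
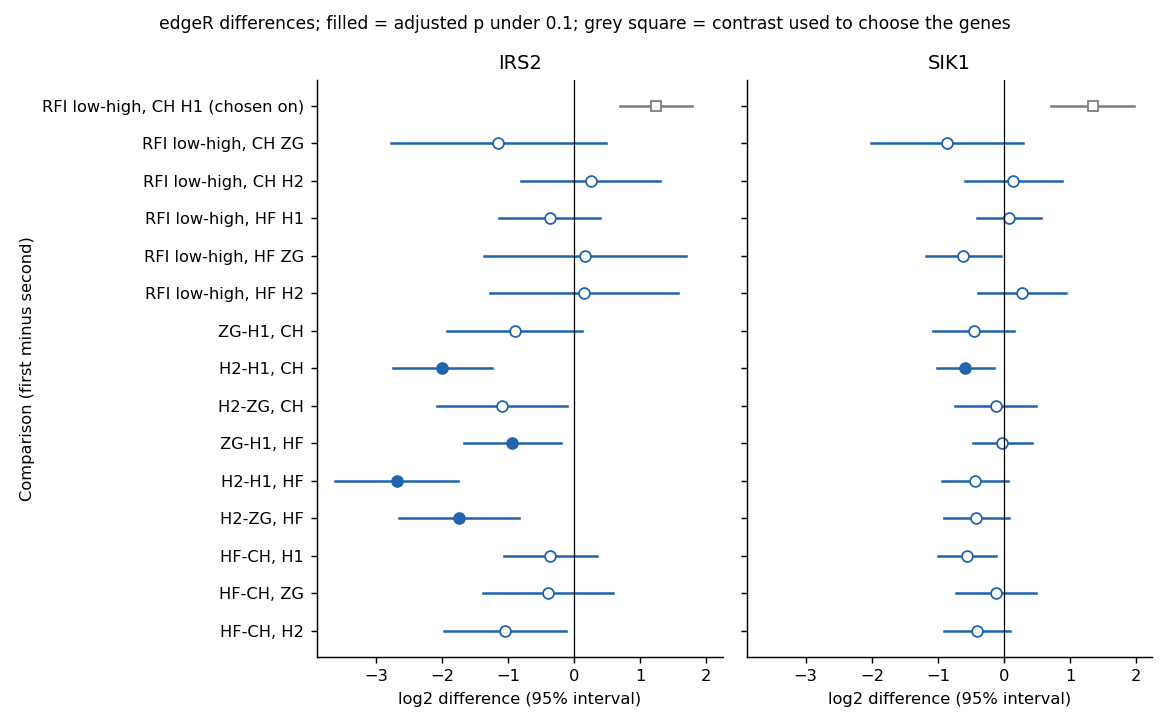
Log2 differences of IRS2 (left) and SIK1 (right) on the x axis with 95% intervals as lines, for each comparison on the y axis; filled points passed an edgeR adjusted p under 0.1, open points did not, and the grey square is the contrast from which the genes were chosen. The filled points are IRS2 in HF for all 3 pairs of diets (-0.94, -2.68 and -1.75) and both genes in CH for H2 against H1 (-1.99 and -0.58). The filled CH points share the H1 libraries from which the genes were chosen and are no independent result.

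IRS2 differed between diet phases. In HF steers IRS2 fell from H1 to ZG and again from ZG to H2, and in CH steers it fell from H1 to H2. Its mean level was 4.67 ± 2.501 CPM on H1 (SD, n = 16), 2.37 ± 2.12 CPM on ZG (n = 18) and 0.691 ± 0.647 CPM on H2 (n = 13) in HF. In CH it was 6.13 ± 3.53 CPM (n = 20), 3.40 ± 2.68 CPM (n = 6) and 1.52 ± 1.37 CPM (n = 17). Many genes differed between phases, so each contrast is given beside the share of all genes called.

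From H1 to H2 in HF, 14 of 16 H1 libraries were above every H2 library. The ranges were 1.36 to 11.3 CPM on H1 and 0 to 2.23 CPM on H2, and 11 of 13 H2 libraries were below every H1 library. The log2 difference was -2.68 (SE 0.47, 95% interval -3.62 to -1.75, edgeR adjusted p 6.7e-06). In this comparison 61.9% of the genes were called, and 26 of 13945 genes had a lower log2 difference than IRS2. Across the 5 fits that left out 1 low RFI steer on H2, the difference stayed between -2.96 and -2.58. With the component score as a covariate it was -1.21 (edgeR adjusted p 0.0021), and the mean score was 28.3 on H1 and -23.3 on H2.

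From H1 to ZG in HF the IRS2 ranges overlapped widely, 1.36 to 11.3 CPM against 0 to 6.26 CPM, although 8 of 18 ZG libraries were below every H1 library. The log2 difference was -0.94 (SE 0.37, -1.67 to -0.20, edgeR adjusted p 0.0286), where 58.0% of the genes were called. With the steer as a replicate block, limma-voom gave -1.61 and an adjusted p of 0.000758. With the component score as a covariate it was -0.03 (edgeR adjusted p 0.944) and not called, the mean score being 28.3 on H1 and -20.2 on ZG, a difference that the covariate takes up. From ZG to H2 in HF, 8 of 18 ZG libraries were above every H2 library. That log2 difference was -1.75 (SE 0.46, -2.65 to -0.84, edgeR adjusted p 0.0162), where 7.24% of the genes were called and 62 genes had a lower difference. It was -1.18 with the score as a covariate (edgeR adjusted p 0.0035). With the steer as a replicate block, limma-voom gave -1.51 and an adjusted p of 0.170, so that this call was lost. That fit changed the method as well as adding the block, and which of them moved the call was not tested.

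From H1 to H2 in CH, IRS2 spanned 1.47 to 11.97 CPM on the first diet and 0.111 to 5.98 CPM on the second. On H1, 9 of 20 libraries were above every H2 library, and on H2, 12 of 17 were below every H1 library. The log2 difference was -1.99 (SE 0.38, -2.74 to -1.25, edgeR adjusted p 8.5e-06), where 66.6% of the genes were called and 87 genes had a lower difference. Its H1 libraries, low and high RFI alike, are those from which the genes were chosen, so it is no independent result. The median of the high RFI steers among them was 3.78 CPM, against 1.27 and 1.08 CPM in the H2 groups. The mean component score was 31.3 on H1 and -23.8 on H2, and with the score as a covariate, which takes up that difference in scores, IRS2 was at -0.37 (edgeR adjusted p 0.325) and not called.

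The remaining CH pairs rest on the 6 ZG libraries, in which IRS2 spanned 0.425 to 8.44 CPM. Its log2 difference from H1 to ZG was -0.90 (-1.92 to 0.12, edgeR adjusted p 0.226), where 17.8% of the genes were called. With the steer as a replicate block limma-voom gave -1.16 with an adjusted p of 0.0774 and called 3979 genes in place of 2476. The called genes split into 1505 higher and 971 lower under TMM, but into 972 and 1131 under DESeq2 size factors. The IRS2 difference from ZG to H2 was -1.10 (-2.08 to -0.11, edgeR adjusted p 0.252), where 2.82% of the genes were called.

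SIK1 differed less by diet. It was called in 1 of the 6 pairs, from H1 to H2 in CH, where 66.6% of all genes were called. There it ranged from 2.76 to 22.1 CPM on H1 (median 5.46) and from 1.55 to 14.2 CPM on H2 (median 3.95). The ranges overlapped, with 4 of 20 H1 libraries above all H2 libraries and 4 of 17 H2 libraries below all H1 libraries. The log2 difference was -0.58 (SE 0.22, -1.02 to -0.15, edgeR adjusted p 0.0169), and 2759 of 13945 genes had a lower difference. It shares the H1 libraries used for the choice and is no independent result: the mean log2 CPM was 3.26 on H1 and 2.08 on H2 in low RFI steers, but 2.17 and 2.15 in high RFI steers. With the component score as a covariate it was -0.18 (edgeR adjusted p 0.631).

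In HF the SIK1 medians were 4.72, 4.45 and 3.98 CPM on H1, ZG and H2. The log2 differences were -0.02 from H1 to ZG (-0.47 to 0.42, edgeR adjusted p 0.941), -0.44 from H1 to H2 (-0.94 to 0.06, edgeR adjusted p 0.130) and -0.42 from ZG to H2 (-0.91 to 0.08, edgeR adjusted p 0.364). In the same pairs 58.0%, 61.9% and 7.24% of all genes were called. The H1 to H2 difference passed without low RFI steer 2071, at -0.52 (edgeR adjusted p 0.0846), and also when only the HF groups on those diets were fitted, at -0.48 (edgeR adjusted p 0.0447). In CH the differences involving ZG were -0.46 against H1 (-1.07 to 0.15, edgeR adjusted p 0.304) and -0.12 for H2 against ZG (-0.73 to 0.49, edgeR adjusted p 0.866). Without high RFI steer 437 the latter turned to 0.25. The shares of all genes called in these CH pairs were 17.8% and 2.82%.

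Steers sampled in more than 1 phase allowed the same comparison within an animal. IRS2 was lower on H2 than on H1 in 8 of 8 steers, 4 of each breed, lower on ZG than on H1 in 6 of 6 and lower on H2 than on ZG in 4 of 4. The drop from H1 to H2 was from 8.68 to 0.678 CPM in CH steer 1100 and from 8.08 to 0.784 CPM in HF steer 2101, and the smallest, in CH steer 364, was from 3.78 to 2.63 CPM. SIK1 was lower on H2 than on H1 in 6 of the same 8 steers, lower on ZG than on H1 in 4 of 6 and lower on H2 than on ZG in 4 of 4. These steers are also part of the comparisons above and are no separate evidence.

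**Figure D3:**
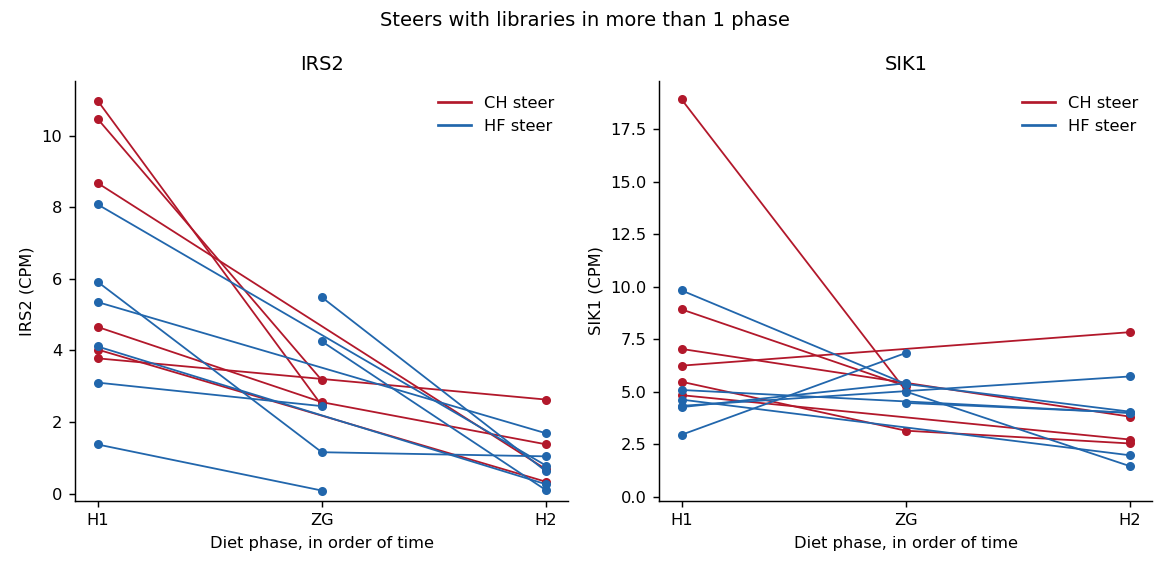
Level of IRS2 (left) and SIK1 (right) in CPM on the y axis for the 14 steers with libraries in more than 1 diet phase, in order of time on the x axis, with a line for each steer (red CH, blue HF). Each IRS2 line runs downward, whereas SIK1 is higher on H2 than on H1 in 2 of 8 steers and higher on ZG than on H1 in 2 of 6.

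Ordered by mean, IRS2 was highest in CH on H1 (6.13 CPM), then HF on H1 (4.67), CH on ZG (3.40), HF on ZG (2.37), CH on H2 (1.52) and HF on H2 (0.691). On each diet CH was thus next to HF and above it, but no breed difference passed. The other neighbours in this order, HF on H1 with CH on ZG and HF on ZG with CH on H2, differ in both breed and diet and were not compared. The HF minus CH log2 difference of IRS2 was -0.36 on H1 (-1.06 to 0.34, edgeR adjusted p 0.924), -0.40 on ZG (-1.38 to 0.58, edgeR adjusted p 0.918) and -1.05 on H2 (-1.97 to -0.13, edgeR adjusted p 0.512). The shares of all genes called were 2.12%, 0.0645% and 0.810%. On H2, 4 of 17 CH libraries were above every HF library. That breed difference passed with the component score as a covariate, at -1.12 (edgeR adjusted p 0.0270), the mean scores on H2 being -23.8 in CH and -23.3 in HF.

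For SIK1 the order of means was CH on H1 (7.69 CPM), CH on ZG (5.51), HF on H1 (4.90), CH on H2 and HF on ZG (both 4.85) and HF on H2 (3.55). The neighbours in this order that share a breed, CH on H1 with CH on ZG and HF on ZG with HF on H2, were not called, and the others were not compared. The HF minus CH difference was -0.55 on H1 (-0.99 to -0.12), with an unadjusted edgeR p of 0.0138 and an adjusted p of 0.260, -0.12 on ZG (-0.72 to 0.49, edgeR adjusted p 0.965) and -0.41 on H2 (-0.91 to 0.09, edgeR adjusted p 0.773). The H1 value includes the low RFI CH steers on which SIK1 was chosen. The difference between breeds in the change from H1 to H2 was -0.69 for IRS2 (-1.84 to 0.46) and 0.14 for SIK1 (-0.51 to 0.80), and for the change from H1 to ZG -0.04 (-1.25 to 1.17) and 0.44 (-0.32 to 1.19). None was called, as 0 genes (0%) were in either test by edgeR, with 330 and 418 genes at an unadjusted p under 0.05 and 0 and 1 called by DESeq2.

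Within groups, IRS2 and SIK1 were positively correlated in 9 of the 9 groups with 6 or more steers. The relation passed adjustment over the 9 groups by Pearson's r of log2 CPM in 2 of them, low RFI CH and low RFI HF steers on H1. In the CH group r was 0.79 (exact permutation, adjusted p 0.0016) and Spearman's rho 0.92 (exact permutation, adjusted p 0.012, n = 9), and r without the 2 libraries farthest from the median of IRS2 was 0.89. This is also the group whose high values served to choose the genes. In the HF group r was 0.85 (exact permutation, adjusted p 0.083) and rho 0.96 (exact permutation, adjusted p 0.013, n = 7), and r without 2 libraries was 0.83. The HF call by r was lost when any 1 of steers 1656, 1877, 2068, 2220 or 2266 was left out, with r between 0.78 and 0.88.

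The other 7 groups had r from 0.21 to 0.70, with permutation p-values that did not pass adjustment (adjusted p 0.120 to 0.601, exact for groups under 10). High RFI CH steers on H1 had r of 0.41 (n = 11) and rho of 0.45. On H2, r was 0.61 in low RFI and 0.70 in high RFI CH steers, and 0.63 in high RFI HF steers. By rank the last 2 of these passed, each with a rho of 0.76 (exact permutation, adjusted p 0.083, n = 8). Without the 2 libraries farthest from the median of IRS2, r was 0.75, 0.25 and 0.88 in these groups. That rule narrows the range of IRS2, so the lower r of the high RFI CH steers does not show that it rests on 2 steers. Leaving out any 1 of them kept r between 0.55 and 0.79. High RFI HF steers on H1 had r of 0.67, which turned to -0.22 without 2 libraries. On ZG, r was 0.52 in low and 0.21 in high RFI HF steers, and -0.11 in the latter without 2 libraries.

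Over all 90 libraries the deviations from the group means had r of 0.50, given as a description because steers recur and libraries share depth and composition. It was 0.49 without the 20 CH libraries on H1, 0.63 over CH and 0.46 over HF, and 0.68, 0.36 and 0.62 on H1, ZG and H2. In 63 of 90 libraries both genes lay on the same side of their group mean. The 12 group means had r of 0.77, but they include the low RFI CH steers on H1. That group was the highest for both genes and served to choose them.

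**Figure D4:**
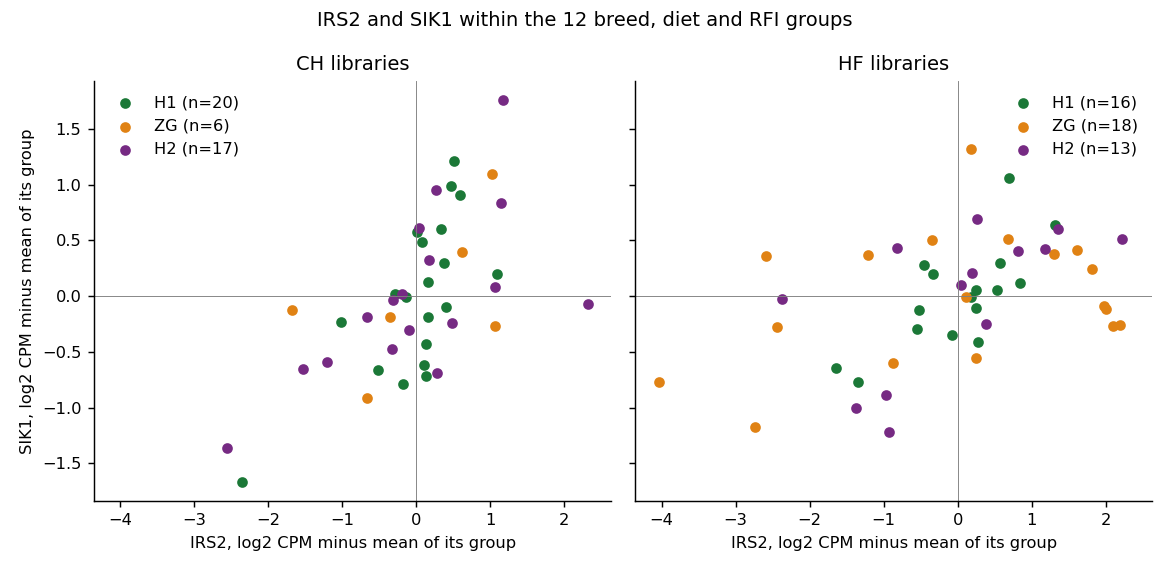
Deviation of SIK1 (y axis) against deviation of IRS2 (x axis) from the mean of the library's breed, diet and RFI group, in log2 CPM, for CH (left, 43 libraries) and HF (right, 47 libraries), coloured by diet. Points rise together in both breeds, with r of 0.63 in CH and 0.46 in HF, where ZG libraries spread along the IRS2 axis.

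IRS2 moved with the main axis of variation among the libraries, as did many other genes. The within-group deviations of IRS2 had r of 0.87 with the score on the first principal component, 0.59 on H1, 0.97 on ZG and 0.81 on H2. They had r of 0.59 with the number of genes that had a count, -0.60 with the percentage of counts in the 100 highest genes and 0.17 with log2 total counts. For SIK1 r was 0.40 with the score, and 0.58 on H1, 0.40 on ZG and 0.46 on H2, and with the other 3 measures it was 0.27, -0.23 and 0.08. On H1 the 2 genes thus had nearly equal r with the score. By r with the score over 90 libraries, IRS2 was number 1295 and SIK1 number 4618 of 13945 genes. Of these genes 4075 had r over 0.5 and 3002 had r under -0.5. The sign of the component was set so that IRS2 rises with the score. In the ZG libraries of HF steers, the 4 with 3 or fewer IRS2 reads, steers 1798, 2069, 2242 and 5635, had scores of -79.3, -107, -111 and -134, and no other HF library on ZG was under -51.9. Given the score, r between IRS2 and SIK1 over the 90 libraries was 0.33. The part of this component in the diet differences was not tested.

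**Figure D5:**
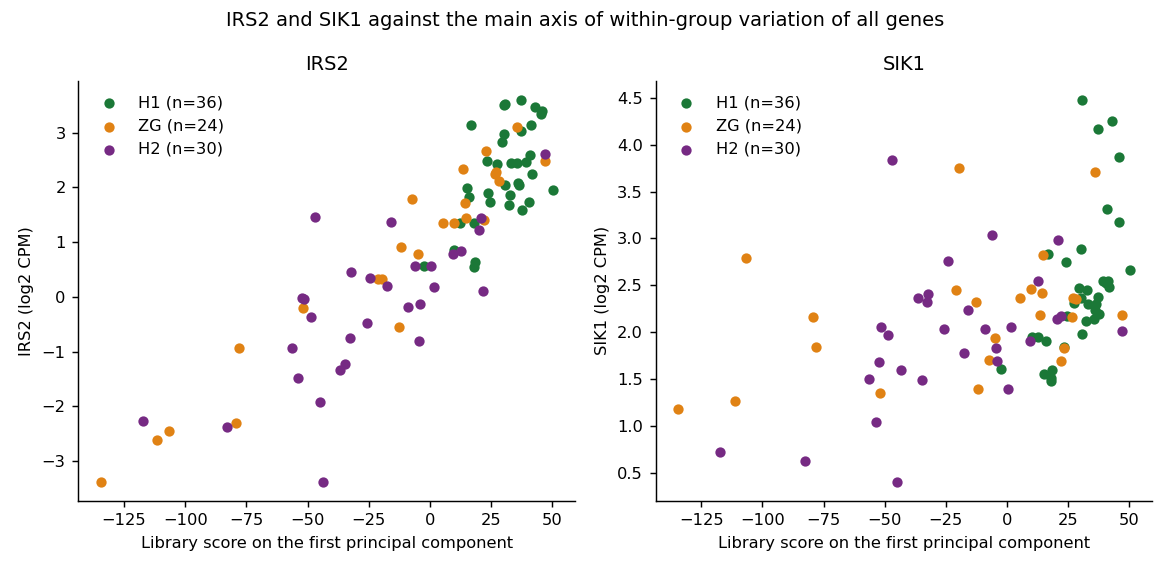
Level of IRS2 (left) and SIK1 (right) in log2 CPM on the y axis against the score of the library on the first principal component of within-group deviations of all genes on the x axis (no unit), for 90 libraries coloured by diet. IRS2 follows the score, with r of 0.87 within groups, and H1 libraries lie at its upper end, while SIK1 had r of 0.40 over all groups and 0.58 on H1. The sign of the score was set so that IRS2 rises with it.

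By Pearson's r of within-group deviations over 90 libraries, 3590 of 13944 other genes had r over 0.5 with IRS2, against 36 with SIK1. SIK1 was number 3570 among the genes most like IRS2, while IRS2 was number 36 among those most like SIK1. The 100 genes most like each had 4 in common, which is 4% of either list. The number that unrelated lists would share was not worked out, so this overlap is called neither small nor large.

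Highest with IRS2 was SPON2, a secreted matrix protein, with r of 0.91, and it was also first without the CH libraries on H1 (r 0.92). Second was ENSBTAG00000027464 (0.90), for which no name was at hand, and number 10 was SLC25A42, a mitochondrial carrier of coenzyme A (0.88). The lowest was ENSBTAG00000013620 (-0.81). Highest with SIK1 was ENSBTAG00000025462 (0.73). NOCT, the clock-controlled gene nocturnin, was number 3 with r of 0.68, at 0.65, 0.68 and 0.72 on H1, ZG and H2, and its rank was 3 in HF alone and 4 in CH alone. MYCL, a transcription factor of the MYC family, was number 9 (0.58).

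Of 148 genes listed for insulin and cAMP signalling, gluconeogenesis, lipogenesis, clock and immediate-early response, 10 could be matched by name, IRS2 and SIK1 included, and INSR, IRS1, SIK2, SIK3, CRTC2, PCK1 and G6PC were not among them. The lists are therefore not described as groups, and the other 8 carry names because the study had named them for an RFI difference. From H1 to H2 in CH, 6 of the 8 were called, where 66.6% of all genes were. JUN, an AP-1 subunit (-0.60, edgeR adjusted p 3.8e-05), HDAC5, a class IIa deacetylase of the kind SIK1 phosphorylates (-0.60, edgeR adjusted p 0.0055), and MID1IP1, a lipogenic factor (-0.43, edgeR adjusted p 0.016), fell, whereas NR1D1, a clock repressor, rose (0.71, edgeR adjusted p 0.015), as did MYC and NFIL3. DGAT2, a triglyceride synthesis enzyme, did not pass (0.19, edgeR adjusted p 0.255), nor did NOCT (0.13, edgeR adjusted p 0.748).

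In HF, 4 of the 8 were called from H1 to ZG, where 58.0% of all genes were, with JUN (-0.49), MID1IP1 (-0.53) and HDAC5 (-0.53) lower and NOCT higher (1.16, edgeR adjusted p 0.0044). From H1 to H2, where 61.9% of all genes were called, 4 were, with JUN (-0.46) and HDAC5 (-0.55) lower and NOCT (1.14) and NR1D1 (0.77) higher. NOCT thus rose in HF where SIK1, with which it was correlated within groups, had differences of -0.02 and -0.44. HDAC5 had r of 0.85 with IRS2 within groups, number 143 of 13944, and JUN 0.55. In the H1 libraries of HF steers NOCT was below that of CH steers by a log2 difference of -1.11 (edgeR adjusted p 0.0886). It was the 1 gene of the 8 called there, where 2.12% of all genes were. The CH libraries include low RFI steers, in which NOCT was above that of high RFI steers by 1.88 (edgeR adjusted p 0.183). As NOCT carries a name because of an RFI difference, this breed difference is no independent result.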

How the data were processed

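The authors made stranded mRNA libraries from the biopsies, read one end of 50 bp, trimmed with cutadapt, aligned to UMD3.1 with STAR 2.5.3a (per the labels) and counted per Ensembl gene; the deposited values are raw counts. Rows carry identifiers only, and 352 names came from the study's list of called genes. Libraries were grouped by labelled breed, diet and RFI group. Counts were fitted with edgeR 4.0.16 in R 4.3.3 (TMM, filterByExpr, robust quasi-likelihood, Benjamini-Hochberg adjustment, called under 0.1): RFI within each breed and diet alone, other contrasts with all 12 groups in one fit. Levels are TMM-normalized CPM, with a prior count of 2 for log2 CPM. Labels give the steer of each library, and libraries of one steer had a consensus correlation of 0.1241 in limma-voom (limma 3.58.1). Separate steers are the replicates within a group. Correlations used exact permutations, or 100000 permutations in groups of 10 or more. Alternatives were DESeq2 1.42.0, its size factors, other filters, thresholds and priors, other samples in the fit, the steer as a block, leaving out libraries and, added after seeing the data, the component score. The fits were tested on simulated data. Members and gene lists were chosen with earlier results of these data known. Named genes were the members, called or nearest list genes, and those most and least like each member, of which the gene least like SIK1 is not reported here. A planned promoter search was not run, as no sequence was used here.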

Additional observations from a re-analysis of the deposited data

Results flagged for a closer look

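In 18 tests of a gene in a group of 4 to 10 steers, 5 libraries lay far from the rest by Dixon's ratio of CPM at the 95% level. Chance flags about 1 in 20 groups only where values are normally distributed. CPM is skewed towards high values, and the ratio was not repeated on log2 CPM, so the number flagged is not set against chance. For IRS2 these were low RFI CH steer 950 on H1, the lowest of its group at 1.47 CPM (18 reads, next 6.99 CPM), low RFI CH steer 454 on H2, the highest at 5.98 CPM (50 reads, next 2.64 CPM), and high RFI HF steer 1661 on H2, the highest at 2.23 CPM (30 reads, next 1.04 CPM). For SIK1 they were low RFI HF steer 5632 on H1, the highest at 9.82 CPM (443 reads, next 5.75 CPM), and high RFI HF steer 5633 on ZG, the highest at 13.4 CPM (232 reads, next 6.96 CPM). Without steer 454 the correlation of IRS2 with SIK1 in its group was 0.82 in place of 0.61.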

How the results depend on the processing

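Outside the RFI contrast of CH on H1, which served to choose the genes, the member differences kept their direction and call under the DESeq2 Wald test, DESeq2 size factors and no filter on low counts, and for RFI also with all 12 groups in one fit. A filter of at least 10 counts in every library brought SIK1 in HF from H1 to H2 past the threshold (-0.51) and left IRS2 untested outside the RFI contrasts on H1. Fitting only the groups compared did so too (-0.48), brought IRS2 in CH from H1 to ZG past it (-0.91) and left IRS2 in HF from ZG to H2 no longer called (-1.75). The fit with the steer as a replicate block also replaced edgeR by limma-voom, so block and method cannot be told apart. It changed 2 calls, IRS2 in CH from H1 to ZG (-1.16) and in HF from ZG to H2 (-1.51). It also turned 3 uncalled values. These were the RFI difference of CH on H2 (IRS2 -0.027, SIK1 -0.089) and the breed difference of the IRS2 RFI effect on H2 (0.63). That last value was 0.13 without steer 1797.

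With the component score as a covariate, IRS2 (-0.37) and SIK1 (-0.18) in CH from H1 to H2 were no longer called. Neither was IRS2 in HF from H1 to ZG (-0.032). The IRS2 breed difference on H2 was called with it (-1.12). The covariate turned 9 uncalled values: IRS2 by RFI in CH on ZG (0.48), HF on ZG (-0.016) and over 5 combinations (0.12), IRS2 in CH from H1 to ZG (0.027), SIK1 in CH from ZG to H2 (0.040), in HF from H1 to ZG (0.33) and by breed on ZG (0.026), and the breed difference of the RFI effect on ZG (IRS2 -0.34, SIK1 -0.27). The score itself differs between diets, so for those of these contrasts that compare diets the covariate removes part of the difference by construction. The cause of the other changes was not tested.

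For differences, 1 library at a time was left out only from the groups of 3 or 5 steers, CH on ZG and low RFI HF on H2. Contrasts without these groups, among them CH from H1 to H2 and HF from H1 to ZG, were not tried this way. For correlations each steer of a group was left out in turn. Leaving out 1 library turned 7 results, all uncalled, over these ranges: IRS2 by RFI in HF on H2 (-0.40 to 0.36), SIK1 in CH from ZG to H2 (-0.30 to 0.25), SIK1 by breed on ZG (-0.29 to 0.26), IRS2 by breed in the change from H1 to ZG (-0.28 to 0.32), and the breed difference of the RFI effect of SIK1 on ZG (-0.48 to 0.63) and on H2 (IRS2 -0.64 to 0.14, SIK1 -0.023 to 0.31). SIK1 in HF from H1 to H2 ranged from -0.52 to -0.36. Correlations ranged from 0.38 to 0.82 (low RFI CH on H2; past without 454), 0.55 to 0.79 (high RFI CH on H2; past without 1840), 0.78 to 0.95 (low RFI HF on H1), 0.39 to 0.79 (high RFI HF on H1; past without 1811 or 5613), -0.17 to 0.36 (high RFI HF on ZG; turned without 2242) and 0.55 to 0.82 (high RFI HF on H2; past without 5609). Scaling by library size alone brought 5 more past the threshold: 0.62, 0.72, 0.68, 0.62 and 0.67 for low and high RFI CH on H2, high RFI HF on H1, low RFI HF on ZG and high RFI HF on H2.

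Counts of all genes called moved for CH from H1 to ZG, from 2476 to between 322 (without low RFI steer 788) and 5274 (only those groups fitted), for CH from ZG to H2, from 393 to between 57 and 893, and for HF from ZG to H2, from 1010 to between 419 and 2411. With the score as a covariate they were 4642 in place of 9284 for CH and 3954 in place of 8633 for HF from H1 to H2, and 4451 in place of 8089 for HF from H1 to ZG. Breed counts moved from 295 to between 130 and 724 on H1, from 9 to between 0 (at least 10 counts in every library) and 15 (without high RFI CH steer 437) on ZG and from 113 to between 40 and 279 on H2, and the DESeq2 Wald test called 160 genes in place of 2 for RFI in CH on H1, where the replicate block called 0. With all 12 groups in one fit, 4 were called there, and 5 in CH on H2, 13 in HF on H1 and 2 in HF on ZG in place of 0. IRS2 had a median of 42.5 reads over all libraries. On ZG and H2 its medians were 74.5 and 25 reads in CH and 25 and 9 reads in HF. Differences in IRS2 among the low libraries on these diets therefore rest on few reads.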
